A study of Mus musculus with 19 samples.

Results

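Cholesterol synthesis and sterol control were described from 30 genes, chosen by name from the known pathway, among the 21749 genes of a table of astrocyte ribosome-bound RNA. All 30 were found, each in a single row, and all 30 passed the filter on low values that is described with the tests. Translating ribosome affinity purification (TRAP) pulls down ribosomes that carry a tag, and the RNA bound to them is sequenced. Here the tag was an EGFP fusion of the ribosomal protein L10a, driven by Aldh1l1 regulatory sequence (the transgene Tg(Aldh1l1-EGFP/Rpl10a)JD130Htz, on a B6;FVB background), so every group carried the same transgene and none was without it. The 19 libraries, described as cortical astrocytes of mouse brain, were 4 from males, 3 from females in proestrus, 4 from females in estrus and 8 from females in metestrus. The females were collected at 9 in the morning, and no hour was given for the males. No ages and no agent were named in the labels, and nothing in the labels ties a library to its own animal, so p-values measure the spread between libraries.

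Cholesterol is made from acetyl-CoA in the endoplasmic reticulum and cytosol. The mevalonate steps build isoprene units, these are joined to farnesyl pyrophosphate and squalene, squalene is folded to lanosterol, and a series of oxidations and reductions turns lanosterol into cholesterol. The pathway is run by the transcription factor SREBP-2, which is carried by its escort SCAP to the Golgi for cleavage when membrane sterols are low and is held back by INSIG proteins when they are high. In the adult brain cholesterol is made locally because lipoproteins of the blood do not cross the blood-brain barrier, and astrocytes are a major source of the cholesterol that neurons receive. Proestrus is the stage before ovulation, estrus the stage around and after it, and metestrus the stage that follows.

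Batch 2 held 2 proestrus, 3 estrus and 2 metestrus libraries, batch 3 held 1 library of each stage, and batch 4 held 4 male and 5 metestrus libraries. The stage comparisons therefore rested on batches 2 and 3, and the comparison of males rested on batch 4. Ranges, medians and SDs of metestrus given beside other groups cover all its 8 libraries, so they also hold libraries outside those batches. Markers of astrocytes, 10 genes such as Aldh1l1 and Slc1a2, had mean levels from 13.93 to 14.78 in the 19 libraries on the log2 scale, above the 8 neuronal markers (12.27 to 12.81), the 8 oligodendrocyte markers (10 to 10.99) and the 6 microglial markers (7.53 to 8.35). None of these other cell types was absent, and in bulk samples fewer cells of a type and less RNA per cell cannot be told apart. The 4 Y-linked genes examined were higher in every male library than in any female library, while Xist overlapped between the sexes.

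Pmvk, Hmgcs1 and Idi1, of the mevalonate steps, led the set when levels were scaled to transcript length. Pmvk, which adds the second phosphate to mevalonate, had the highest level per kilobase of its longest annotated transcript, 11.40 ± 0.31 on the log2 scale (SD over 19 libraries). Hmgcs1, which condenses acetyl-CoA and acetoacetyl-CoA at the entry of the pathway, followed at 10.92 ± 0.35 per kilobase. Idi1, which interconverts the isoprene units, came next at 10.51 ± 0.40 per kilobase. Acat2 (10.19 ± 0.34) and Mvd (10.08 ± 0.31 per kilobase), also of the mevalonate steps, held places 7 and 9. Mvk (8.71 ± 0.30 per kilobase), the remaining gene of the mevalonate steps, held place 16. Neighbours in this order mostly lay closer together than the SD between libraries, and the order itself was not tested. Msmo1 at 10.39 ± 0.24 and Fdps at 10.27 ± 0.39 per kilobase lay closer together than either SD. Msmo1 removes methyl groups from the sterol ring, and Fdps makes farnesyl pyrophosphate.

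The lower end of the same scale held genes of several roles. Soat1, which esterifies cholesterol for storage, had 6.38 ± 0.20 per kilobase. Lss, which folds the squalene epoxide into lanosterol, had 6.37 ± 0.44 per kilobase. Mylip, a ubiquitin ligase that marks lipoprotein receptors for breakdown, had 6.37 ± 0.40 per kilobase. These 3 levels were nearly equal, and their order was not tested. The scaling used the longest annotated transcript, of 6992 bases for Lss and 8371 bases for Soat1. Which transcript of a gene was expressed was not tested, and the order depends on that choice. The pathway's regulators lay in between, with Insig1 at 9.67 ± 0.49, Srebf2 at 9.36 ± 0.23, Insig2 at 8.81 ± 0.28, Srebf1 at 8.39 ± 0.28 and Scap at 7.68 ± 0.27 per kilobase. Sqle, the oxygenase that makes the squalene epoxide, stood at 7.88 ± 0.23 per kilobase, between the enzymes before and after it in the pathway, Fdft1, the squalene synthase (10.17 ± 0.24 per kilobase), and Lss. Cyp46a1, the 24-hydroxylase through which the brain removes cholesterol and which is known mainly from neurons, had 9.29 ± 0.30 per kilobase. The neuronal markers were present in every library, and how much of the Cyp46a1 level came from neuronal RNA was not tested.

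**Figure D1:**
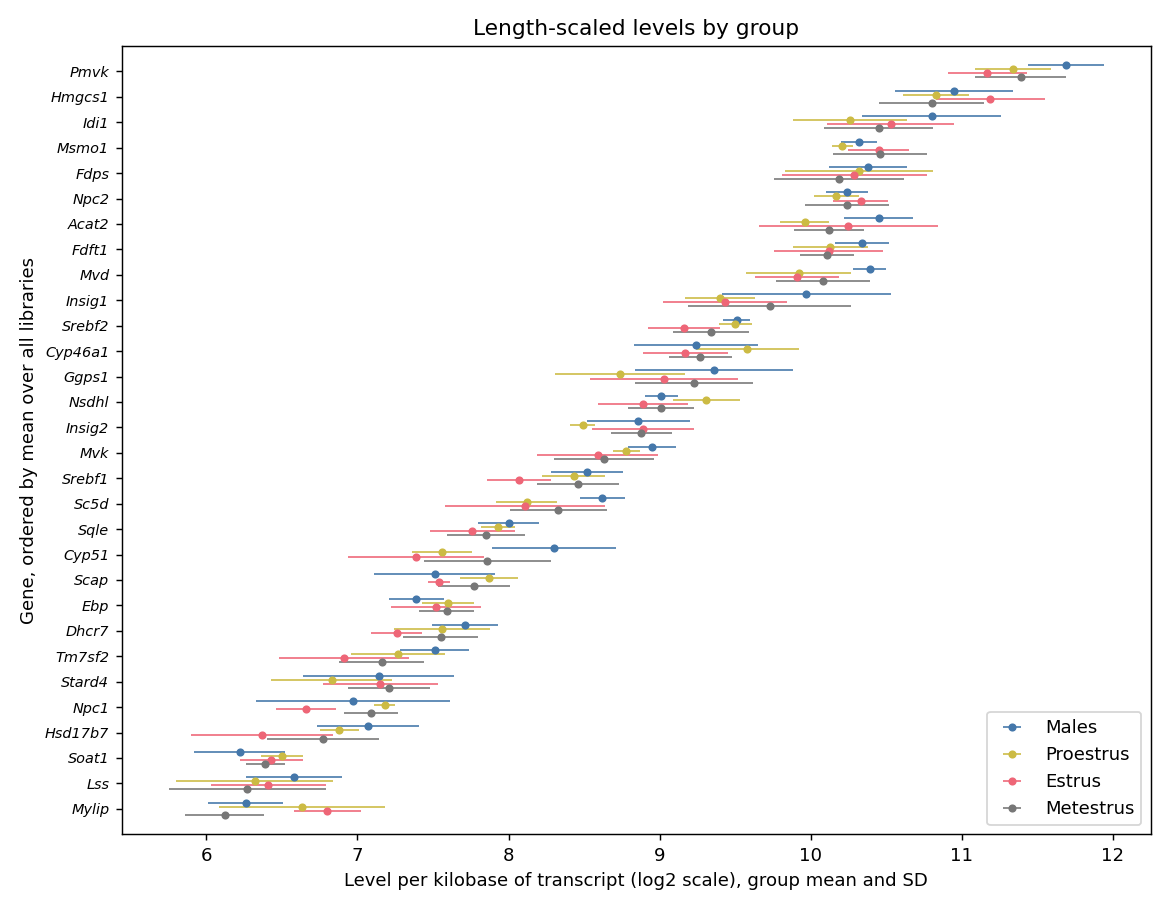
Level per kilobase of the longest annotated transcript (log2 scale) for the 30 genes, ordered by the mean over 19 libraries, with the mean and SD of each group. Pmvk is at the top with 11.40 and Mylip and Lss are at the bottom with 6.37, and the 4 groups overlap for most genes.

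The promoters of 25 of the 30 genes were in the RefSeq promoter table (build GRCm38.p6, windows from 250 bases before to 50 bases after each start). No promoter was available for Fdps, Fdft1, Sqle, Stard4 and Npc1, so the shares below do not cover them. The sterol regulatory element, searched as TCACNCCAC on both strands, was found for 1 of these 25 genes (4.0%), Hmgcs1, and for 1.44% of all 27025 genes in the table. The NF-Y box CCAAT was found for 23 of 25 (92.0%), against 41.1% of all genes, and the Sp1 box GGGCGG for 23 of 25 (92.0%), against 38.2% of all genes. NF-Y and Sp1 are factors known to act beside SREBP at sterol-controlled promoters. The shares of all genes cover the whole promoter table, expressed or not, without matching for base composition or number of windows. A gene counted when any of its windows held the motif, and some members had several windows. Whether these shares are particular to the pathway was not tested. A match of letters is a description of the window and not a site of binding. The 250 bases before the start are shown for Hmgcs1, the one gene with the full element, and for Nsdhl and Mylip, the genes with the smallest unadjusted p-values among the members, with the sterol element, its 8-base core and CCAAT (or ATTGG, its reverse complement) in capitals.
Hmgcs1, chr13:119690101-119690350, plus strand: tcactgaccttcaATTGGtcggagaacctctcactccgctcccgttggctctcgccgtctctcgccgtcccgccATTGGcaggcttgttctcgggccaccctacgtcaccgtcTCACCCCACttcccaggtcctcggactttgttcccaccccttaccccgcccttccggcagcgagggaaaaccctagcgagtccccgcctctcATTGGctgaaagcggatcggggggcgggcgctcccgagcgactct
Nsdhl, chrX:72918271-72918520, plus strand: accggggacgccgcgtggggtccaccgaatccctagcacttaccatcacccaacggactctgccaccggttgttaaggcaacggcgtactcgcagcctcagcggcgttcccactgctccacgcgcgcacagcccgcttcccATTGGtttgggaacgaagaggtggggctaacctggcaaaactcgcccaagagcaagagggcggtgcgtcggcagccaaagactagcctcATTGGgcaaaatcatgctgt
Mylip, chr13:45389492-45389741, plus strand: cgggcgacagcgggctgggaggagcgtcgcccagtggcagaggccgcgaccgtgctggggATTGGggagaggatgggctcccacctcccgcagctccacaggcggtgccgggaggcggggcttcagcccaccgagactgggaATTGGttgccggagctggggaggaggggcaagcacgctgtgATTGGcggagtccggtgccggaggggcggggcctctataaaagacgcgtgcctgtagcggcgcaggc
Hmgcs1 and Mylip each held 3 CCAAT boxes in these bases and Nsdhl held 2, and the sterol element of Hmgcs1 began 137 bases before the start.

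No gene of the set passed the threshold in any of the 4 comparisons. The test was limma's moderated test on the deposited log2 values, with group and batch as terms, over the 20644 genes that reached a level of 3.32 in at least 3 libraries, and the threshold was an adjusted p of 0.05 over all of them. The members' levels varied between libraries of one group with a residual SD between 0.20 (Soat1) and 0.52 (Insig1), median 0.30. Over the 9550 tested genes whose mean was at or above that of the lowest member the median was 0.29, so the spread of the members was like that of other genes of their level. The 95% interval of the fold change stayed within 2-fold in either direction for most members. These were 27 of 30 in proestrus against metestrus, 28 in estrus against proestrus, 27 in estrus against metestrus and 30 in males against metestrus. With 1 library omitted at a time, the counts fell as low as 21, 21, 23 and 26, in the same order. In males against metestrus the highest bound, that of Cyp51, was 0.99 on the log2 scale, where 1 is 2-fold.

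**Figure D2:**
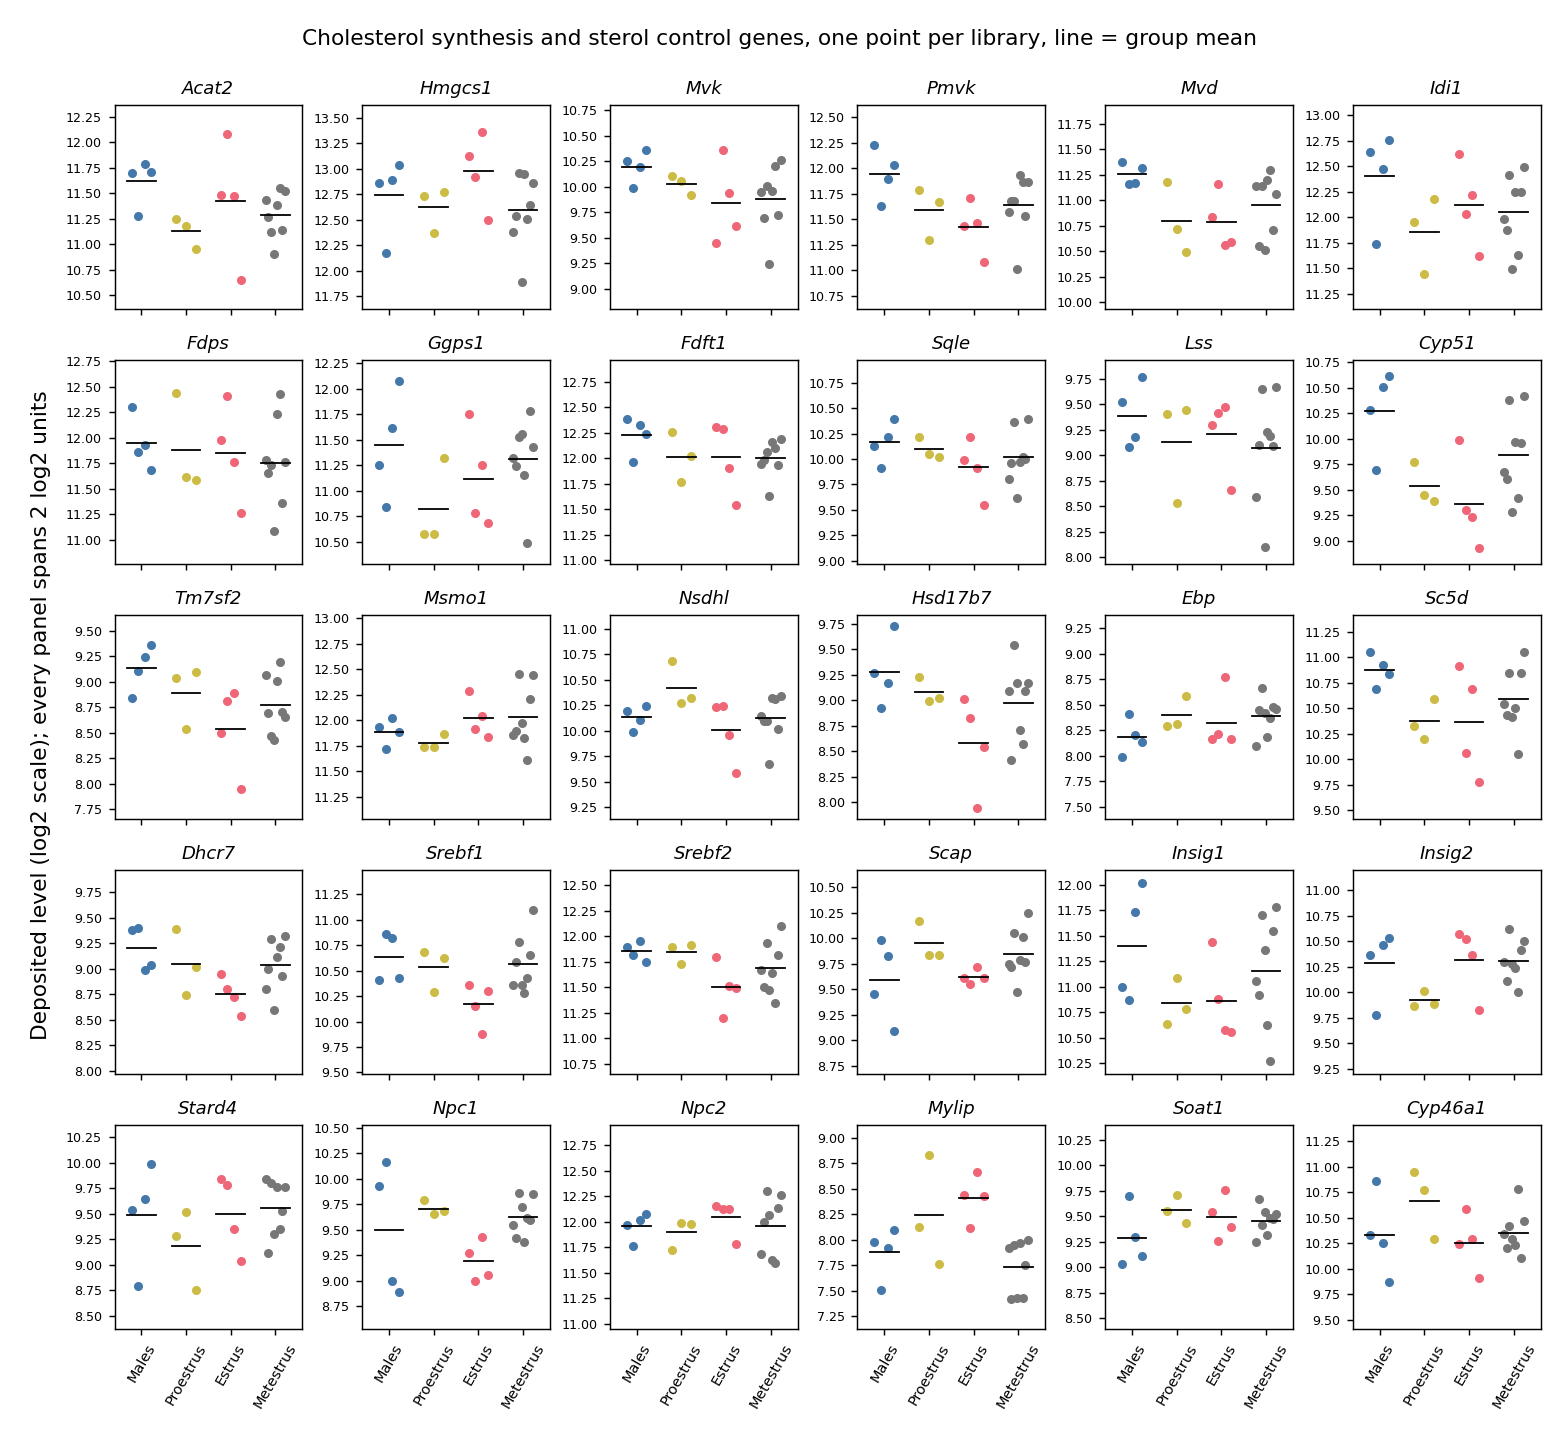
Deposited level (log2 scale) of each of the 30 genes in every library, as points, with the group mean as a line, in 4 males, 3 proestrus, 4 estrus and 8 metestrus libraries. In the 4 comparisons made, the groups overlap for most genes. Nsdhl, Scap and Npc1 in estrus lie below all proestrus libraries. Mylip in estrus (8.12 to 8.66) lies above all metestrus libraries (7.42 to 8.0).

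In proestrus against metestrus the median difference of the 30 genes was 0.00 on the log2 scale, beside -0.09 over all tested genes, and 15 of 30 genes had a positive difference, beside 41.9% of all genes. In limma 0 of 30 passed, where 0.988% of all tested genes did. An unadjusted p under 0.05 was found for 0 of 30, where 13.1% of all genes had one. Groups of libraries did not overlap for 0 of 30, where 8.73% of all genes were separated. None of these 3 counts, of adjusted calls, unadjusted calls and separated groups, lay above its background share. Without Metestrus replicate 3 the median of the set was 0.14 and 22 of 30 genes were positive. Over all genes the median was then -0.01, with 49.2% positive.

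Insig2 had the lowest unadjusted p of this comparison, 0.0718 in limma. Insig2 (ENSMUSG00000003721.15), which retains SCAP in the endoplasmic reticulum and is less dependent on SREBP than Insig1, had 9.87, 10.01 and 9.89 in the proestrus libraries, against a lowest value of 10, a median of 10.29 and a highest value of 10.62 in the metestrus libraries. The proestrus libraries were all near the bottom of the metestrus range, with replicate 2 just inside it. The difference was -0.42 (SE 0.22, fold 0.748, limma adjusted p = 0.435), and it was -0.16 without Metestrus replicate 3. Insig1, itself a target of SREBP, had 10.64, 11.09 and 10.78 in proestrus, against a lowest value of 10.27, a median of 11.21 and a highest value of 11.78 in metestrus. Its proestrus values lay inside the wide metestrus range, with a difference of -0.39 (SE 0.36, limma adjusted p = 0.692) that was -0.06 without Metestrus replicate 3.

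The enzymes showed no common direction in proestrus. The 6 genes of the mevalonate steps had differences from -0.23 to 0.14, the 3 from squalene to lanosterol had differences from 0.01 to 0.06, and the 8 from lanosterol to cholesterol had differences from -0.35 to 0.31. Ggps1, which makes geranylgeranyl pyrophosphate for protein prenylation, had 10.57, 10.57 and 11.32 in proestrus, against a lowest value of 10.49, a median of 11.38 and a highest value of 11.78 in metestrus. Low proestrus libraries were those of batch 2, and proestrus replicate 3, of batch 3, was close to the metestrus median. The difference was -0.54 (SE 0.33, limma adjusted p = 0.515), or -0.85 without Proestrus replicate 3. Stard4, a carrier of cholesterol through the cytosol, differed by -0.40 (SE 0.28, limma adjusted p = 0.58), and Cyp46a1 by 0.35 (SE 0.23, limma adjusted p = 0.549). Mylip differed by 0.48 (SE 0.29, limma adjusted p = 0.512) and Nsdhl by 0.31 (SE 0.20, limma adjusted p = 0.542). Neither was separated between the groups. Single libraries moved several of these differences. Without Metestrus replicate 2 that of Stard4 was -0.71, that of Cyp46a1 0.23 and that of Mylip 0.27. Without Metestrus replicate 3 that of Stard4 was -0.08 and that of Cyp46a1 0.57. Without Proestrus replicate 3 that of Stard4 was -0.24 and that of Mylip 0.77, and Mylip was at 0.18 without Proestrus replicate 2.

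In estrus against proestrus the median difference of the 30 genes was -0.06, beside 0.02 over all tested genes, with 11 of 30 positive beside 52% of all. In limma 0 of 30 passed, where 0.940% of all tested genes did. An unadjusted p under 0.05 was found for 1 of 30, where 14.5% of all genes had one, and groups of libraries did not overlap for 3 of 30, where 9.06% of all genes were separated. Those 3 genes, lower in all estrus libraries than in any proestrus library, were Nsdhl, Scap and Npc1, and their number was close to the background share. Estrus and proestrus are each also set against metestrus here, so the comparisons share libraries. Beside these counts, the 6 endothelial and mural markers all had negative differences with a median of -0.92, 3 of them with an unadjusted p under 0.05, and the 8 oligodendrocyte markers had a median of 0.26. None of these markers passed in limma, and their part in the members' values was not tested.

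Nsdhl (ENSMUSG00000031349.5), an X-linked dehydrogenase that helps to remove methyl groups from the sterol ring, had 10.23, 10.24, 9.96 and 9.59 in the estrus libraries, against 10.68, 10.27 and 10.32 in the proestrus libraries. The groups did not overlap, though the highest estrus and the lowest proestrus values were almost equal. Nsdhl averaged 10 ± 0.30 over the 4 estrus libraries and 10.42 ± 0.22 over the 3 proestrus libraries (SD). The difference was -0.44 (SE 0.18, 95% interval -0.82 to -0.06, fold 0.736), with an unadjusted p of 0.0258 and an adjusted p of 0.257 in limma. Over the alternative fits described below it spanned -0.58 to -0.31, with limma adjusted p from 0.181 to 0.648. Without Proestrus replicate 1 no member, Nsdhl included, had an unadjusted limma p under 0.05. Within batch 3 the values were 9.59 in estrus and 10.32 in proestrus, and within batch 2 they were 9.96 to 10.24 in estrus and 10.27 to 10.68 in proestrus.

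Scap, Srebf2 and Srebf1 had negative differences in estrus against proestrus and did not pass the test. Scap, the escort of SREBP, had 9.61, 9.55, 9.72 and 9.61 in estrus, against 10.17, 9.84 and 9.84 in proestrus. Every estrus library was below every proestrus library by a small margin, and the difference was -0.33 (SE 0.21, limma adjusted p = 0.501), or -0.19 without Proestrus replicate 1. Srebf2, which encodes SREBP-2, had 11.80, 11.20, 11.51 and 11.49 in estrus, against 11.90, 11.73 and 11.92 in proestrus, with a difference of -0.34 (SE 0.17, limma adjusted p = 0.383). Its highest estrus library, replicate 1, lay among the proestrus values. Srebf1, which encodes the form that drives mainly fatty acid synthesis, had 10.36, 10.15, 9.88 and 10.30 in estrus, against 10.68, 10.29 and 10.62 in proestrus, with a difference of -0.34 (SE 0.20, limma adjusted p = 0.439), or -0.22 without Proestrus replicate 1. Estrus replicates 1 and 4 overlapped the proestrus values. Insig2 went the other way, with 10.57, 10.52, 10.37 and 9.83 in estrus, against 9.87, 10.01 and 9.89 in proestrus. All estrus libraries but replicate 4 exceeded the proestrus libraries, with a difference of 0.39 (SE 0.21, limma adjusted p = 0.401), or 0.62 without Estrus replicate 4.

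Transport and removal genes differed in both directions. Npc1, the membrane protein that lets cholesterol leave the lysosome, had 9.27, 9.00, 9.43 and 9.05 in estrus, against 9.79, 9.65 and 9.68 in proestrus. The groups were separated, and the difference was -0.51 (SE 0.25, limma adjusted p = 0.356). Npc2, which hands cholesterol to Npc1 inside the lysosome, had 12.16, 12.13, 12.13 and 11.78 in estrus, against 11.72, 11.99 and 11.98 in proestrus. Cyp46a1 had 10.24, 10.59, 10.29 and 9.91 in estrus, against 10.95, 10.77 and 10.29 in proestrus. Its groups overlapped at proestrus replicate 3, and the difference was -0.44 (SE 0.21, limma adjusted p = 0.354).

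Of the enzymes after lanosterol, 7 of 8 had negative differences in estrus against proestrus, from -0.49 to 0.25. Hsd17b7, a reductase of the demethylation complex, had 9.01, 8.83, 7.94 and 8.54 in estrus, against 9.23, 8.99 and 9.02 in proestrus. Estrus replicate 3 was far below the rest, and the difference was -0.49 (SE 0.28, limma adjusted p = 0.433), or -0.29 without that library. Tm7sf2, a reductase of the ring's double bond, differed by -0.38 (SE 0.24, limma adjusted p = 0.491). This was -0.64 without Proestrus replicate 2, -0.10 without Proestrus replicate 3 and -0.17 without Estrus replicate 4. Ggps1 differed by 0.30 (SE 0.31, limma adjusted p = 0.699). Its difference was 0.18 without either of Proestrus replicates 1 and 2 and 0.59 without Proestrus replicate 3. Omitting Estrus replicate 1 gave 0.08 and omitting Estrus replicate 4 gave 0.61. Hmgcs1, at the entry of the pathway, had 13.13, 12.92, 13.36 and 12.50 in estrus, against 12.73, 12.37 and 12.77 in proestrus. It differed by 0.35 (SE 0.25, limma adjusted p = 0.538), with 3 of 4 estrus libraries above all proestrus libraries. Omitting Proestrus replicate 2 gave 0.21, omitting Estrus replicate 3 gave 0.23 and omitting Estrus replicate 4 gave 0.63. Sqle had 9.99, 10.22, 9.91 and 9.55 in estrus, against 10.22, 10.05 and 10.02 in proestrus. Estrus replicate 2 equalled the top proestrus value and the other estrus libraries lay below all proestrus libraries. Without Estrus replicate 4, the library whose 30 genes had the lowest mean of all (10.02), 18 of 30 genes had a positive difference and the median was 0.07. Over all genes the median was then 0.10, with 56.9% positive.

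**Figure D3:**
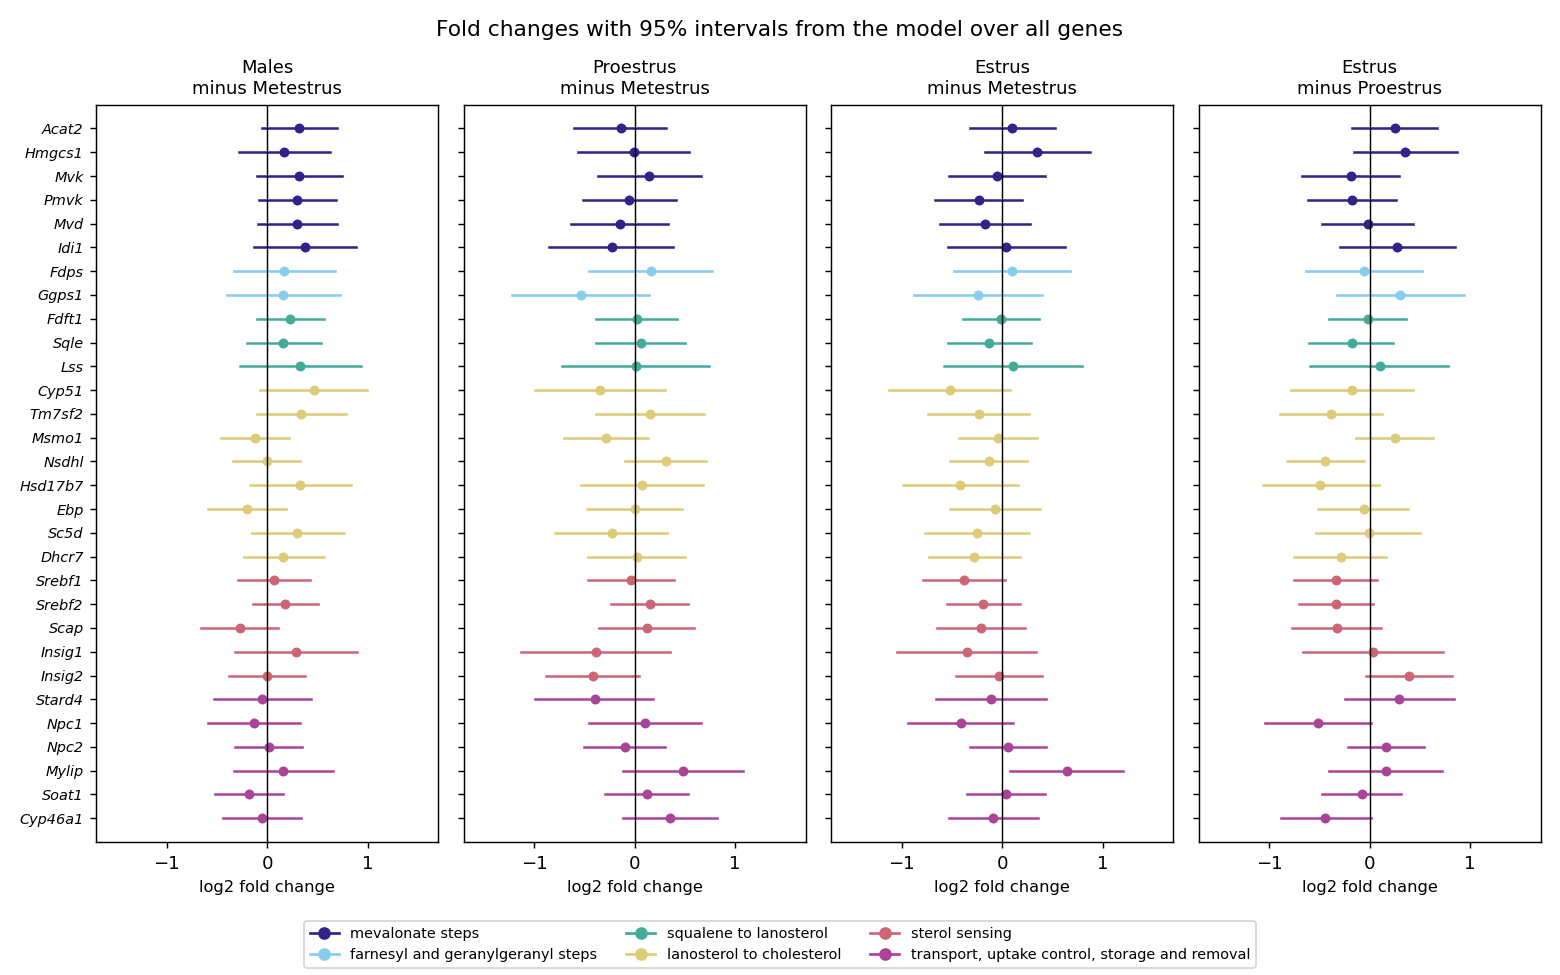
Fold changes (log2 scale) of the 30 genes in pathway order with 95% intervals from the limma model over all tested genes, in males minus metestrus, proestrus minus metestrus, estrus minus metestrus and estrus minus proestrus. Most intervals cross 0, and no gene passed the adjusted threshold.

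In estrus against metestrus the median difference of the 30 genes was -0.12, beside -0.07 over all tested genes, with 8 of 30 positive beside 43.5% of all. In limma 0 of 30 passed, where 0.0872% of all tested genes did. An unadjusted p under 0.05 was found for 1 of 30, where 11.3% of all genes had one, and groups of libraries did not overlap for 1 of 30, where 3.33% of all genes were separated. That gene was Mylip in both cases, and neither share exceeded the background. All 8 enzymes after lanosterol had negative differences, from -0.52 to -0.04, and so did the 5 sterol sensing genes, from -0.38 to -0.03. This lean of the set hung on single libraries, and the values of all genes moved in the same direction. Without Estrus replicate 4, 17 of 30 genes were positive with a median of 0.04, beside 50.9% and 0.01 over all genes. Without Metestrus replicate 3, 17 of 30 were positive with a median of 0.06, beside 50.4% and 0.01 over all genes.

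Mylip (ENSMUSG00000038175.11), which is induced by the sterol-activated liver X receptors, had 8.44, 8.12, 8.66 and 8.43 in the estrus libraries, against a lowest value of 7.42, a median of 7.83 and a highest value of 8.0 in the metestrus libraries. Each estrus library was above each metestrus library. Mylip averaged 8.41 ± 0.22 in estrus (SD, n = 4) and 7.73 ± 0.26 in metestrus (SD, n = 8). The difference was 0.64 (SE 0.27, 95% interval 0.08 to 1.20, fold 1.56), with an unadjusted p of 0.027 and an adjusted p of 0.385 in limma, and it was 0.42 without Metestrus replicate 2. Within batch 2 the values were 8.12 to 8.66 in estrus and 7.92 and 7.42 in metestrus, and within batch 3 they were 8.43 in estrus and 7.95 in metestrus. The proestrus libraries had 8.13, 8.83 and 7.76, spread across both ranges.

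Cyp51, the demethylase that takes the first step away from lanosterol, had 9.99, 9.30, 9.23 and 8.93 in estrus, against a lowest value of 9.28, a median of 9.82 and a highest value of 10.42 in metestrus. Its lowest estrus libraries lay below the metestrus range and the highest lay in its middle, with a difference of -0.52 (SE 0.29, limma adjusted p = 0.506). Insig1 had 11.44, 10.88, 10.58 and 10.56 in estrus, against a lowest value of 10.27, a median of 11.21 and a highest value of 11.78 in metestrus. All 4 lay inside the metestrus range, with a difference of -0.35 (SE 0.33, limma adjusted p = 0.727). Srebf1 differed by -0.38 (SE 0.20, limma adjusted p = 0.468), with the lower estrus values, 10.15 and 9.88, under the metestrus range of 10.28 to 11.09. Npc1 differed by -0.41 (SE 0.25, limma adjusted p = 0.552). Dhcr7, the reductase that finishes one route to cholesterol, had 8.95, 8.80, 8.73 and 8.54 in estrus, against a lowest value of 8.60, a median of 9.06 and a highest value of 9.32 in metestrus. All of its estrus values lay below the metestrus median. Hmgcs1 pointed the other way by 0.35 (SE 0.25, limma adjusted p = 0.617), with estrus values of 12.50 to 13.36, against a lowest value of 11.89, a median of 12.59 and a highest value of 12.96 in metestrus. Its groups overlapped. Hsd17b7 differed by -0.42 (SE 0.28, limma adjusted p = 0.582). Without Metestrus replicate 3 the difference of Cyp51 was -0.17, of Insig1 -0.06, of Npc1 -0.26, of Hsd17b7 -0.16 and of Hmgcs1 0.57. Without Estrus replicate 4 that of Cyp51 was -0.29, of Insig1 -0.15 and of Hmgcs1 0.63. Other libraries moved single genes, Insig1 to -0.55 without Estrus replicate 1, Hmgcs1 to 0.22 without Estrus replicate 3 and 0.21 without Metestrus replicate 1, and Hsd17b7 to -0.22 without Estrus replicate 3 and -0.72 without Metestrus replicate 2. Beside these values, the 8 oligodendrocyte markers had positive differences in all 8 cases with a median of 0.45, and the 6 endothelial and mural markers had negative differences in all 6 cases with a median of -0.77. Rpl10a, the gene of the tagged protein, averaged 11.92 in estrus and 12.38 in metestrus. An unadjusted limma p under 0.05 was found for 4 of these 8, 2 of these 6 and Rpl10a, beside 11.3% of all genes. None of these markers passed in limma, and their part in the members' values was not tested.

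In males against metestrus the median difference of the 30 genes was 0.17, beside 0.04 over all tested genes, with 21 of 30 positive beside 55.3% of all. In limma 0 of 30 passed, where 0.0242% of all tested genes did. An unadjusted p under 0.05 was found for 0 of 30, where 5.33% of all genes had one, and groups of libraries did not overlap for 0 of 30, where 1.44% of all genes were separated. All 6 genes of the mevalonate steps had positive differences, from 0.17 to 0.38, as had both farnesyl and geranylgeranyl genes and the 3 from squalene to lanosterol (0.16 to 0.33). Of the 8 enzymes after lanosterol 5 were positive (-0.20 to 0.46), of the 5 sterol sensing genes 3 (-0.27 to 0.29) and of the 6 transport and removal genes 2 (-0.18 to 0.16). Differences between these roles were not tested. The median of the set was 0.26 without Males replicate 2 and 0.08 without Metestrus replicate 4, beside 0.08 and 0.01 over all genes.

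Cyp51 (ENSMUSG00000001467.6) had the lowest unadjusted p of this comparison. It had 10.28, 9.69, 10.51 and 10.61 in the male libraries, against a lowest value of 9.28, a median of 9.82 and a highest value of 10.42 in the metestrus libraries. Replicates 3 and 4 of the males were above all metestrus libraries and replicate 2 was below their median. The difference was 0.46 (SE 0.26, 95% interval -0.07 to 0.99), with an unadjusted p of 0.0829 and an adjusted p of 0.974 in limma. Idi1 had 12.64, 11.74, 12.47 and 12.76 in males, against a lowest value of 11.49, a median of 12.12 and a highest value of 12.49 in metestrus, with a difference of 0.38 (SE 0.24, limma adjusted p = 0.974). Male replicates 1 and 4 lay above the metestrus range and male replicate 2 near its lower end. Tm7sf2 differed by 0.34 (SE 0.21) and Hsd17b7 by 0.33 (SE 0.24), while Acat2, a cytosolic thiolase that makes acetoacetyl-CoA, and Mvk, the mevalonate kinase, each differed by 0.32 (SE 0.18 and 0.20). Their limma adjusted p-values lay between 0.974 and 0.983. Mvd, which decarboxylates mevalonate pyrophosphate, had 11.38, 11.16, 11.17 and 11.32 in males, against a lowest value of 10.51, a median of 11.10 and a highest value of 11.30 in metestrus, a difference of 0.30 (SE 0.19, limma adjusted p = 0.974). Its male values were all above the metestrus median. Pmvk and Sc5d, a desaturase of the sterol ring, each differed by 0.30 (SE 0.18 and 0.22), and Lss by 0.33 (SE 0.29), with limma adjusted p-values from 0.974 to 0.986. Without Metestrus replicate 4 the differences were 0.24 for Idi1, 0.16 for Mvk, 0.19 for Mvd, 0.14 for Pmvk and 0.09 for Lss. Without Males replicate 4 they were 0.18 for Hsd17b7 and 0.21 for Lss, Idi1 was at 0.60 without Males replicate 2, and Sc5d was at 0.17 without Metestrus replicate 6.

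Some members had closer means in males and metestrus. Nsdhl averaged 10.13 ± 0.11 in males (SD, n = 4) and 10.13 ± 0.22 in metestrus (SD, n = 8). Ebp, the X-linked sterol isomerase, averaged 8.18 ± 0.18 in males and 8.39 ± 0.18 in metestrus. Insig2 had 10.37, 9.78, 10.47 and 10.53 in males, with all but replicate 2 inside the metestrus range. Sqle averaged 10.16 ± 0.20 in males and 10.01 ± 0.26 in metestrus, with individual male values of 10.13, 9.91, 10.22 and 10.39. Srebf2 had 11.90, 11.82, 11.95 and 11.75 in males, against a lowest value of 11.35, a median of 11.66 and a highest value of 12.10 in metestrus, and Srebf1 had 10.41, 10.86, 10.82 and 10.43 in males, against a lowest value of 10.28, a median of 10.50 and a highest value of 11.09 in metestrus. All male values of both transcription factors lay inside the metestrus ranges. Cyp46a1 had 10.33, 10.86, 10.25 and 9.87 in males, against a lowest value of 10.11, a median of 10.31 and a highest value of 10.78 in metestrus. Its male replicates 2 and 4 lay above and below that range. Beside the members, the 10 astrocyte markers had positive differences in 8 cases with a median of 0.24, the 6 endothelial and mural markers in all 6 cases with a median of 0.49, and Rpl10a averaged 12.99 in males and 12.38 in metestrus. An unadjusted limma p under 0.05 was found for 4 of these 10, 1 of these 6 and Rpl10a, beside 5.33% of all genes. None of these markers passed the adjusted threshold. The part of these differences in the enzymes' values was not tested. Sex and an unstated hour of collection cannot be told apart in this comparison.

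**Figure D4:**
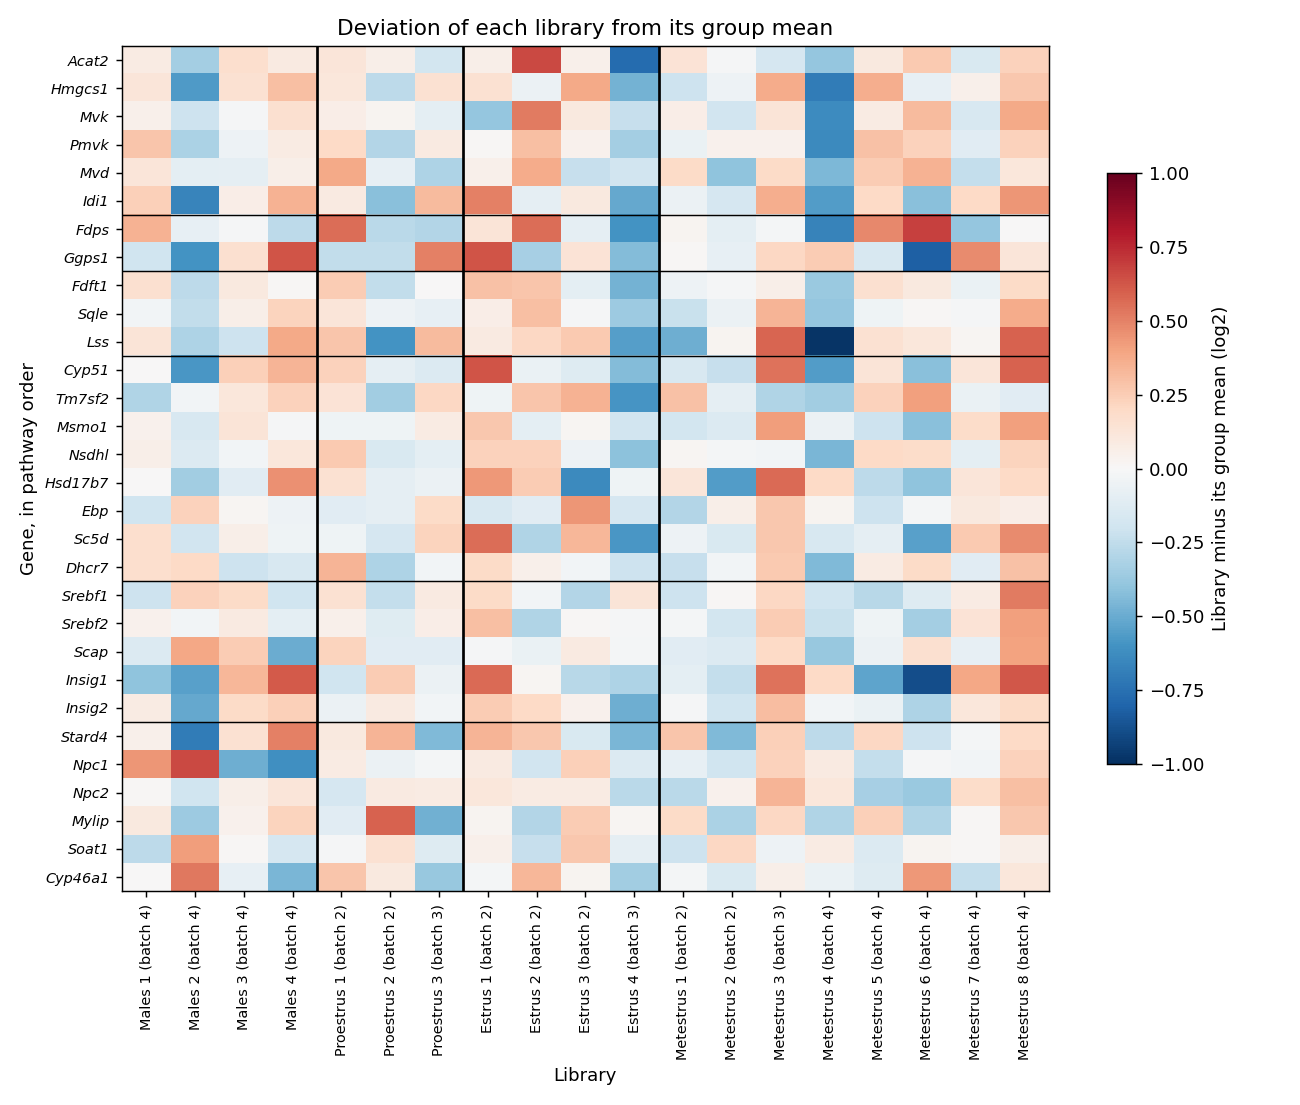
Level of each library minus the mean of its group (log2 scale) for the 30 genes in pathway order, with libraries grouped into males, proestrus, estrus and metestrus and the batch in the label. Estrus 4 is below its group mean for 28 of 30 genes and Metestrus 8 above it for 29 of 30, and Fdps runs opposite to Ggps1 and Insig1 in Metestrus 6 and Metestrus 7.

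Much of the variation lay between libraries of one group. Of the 30 genes, 29 were above the metestrus mean in Metestrus replicate 8, 25 in Metestrus replicate 3 and 25 above the estrus mean in Estrus replicate 1, while only 2 were above it in Estrus replicate 4. The median level of all genes in these libraries was 7.76 in Metestrus replicate 8, 7.76 in Metestrus replicate 3, 7.79 in Estrus replicate 1 and 7.47 in Estrus replicate 4, the highest and the lowest values of their groups. The astrocyte markers stood at 14.70, 14.62, 14.51 and 13.93 in the same libraries, and at 14.57 in Estrus replicate 3, where 19 members were above the group mean. The share of the members' variation that goes with all genes or with the markers was not tested.

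Within groups some members ran against each other, a pattern chosen after the values were seen. In Metestrus replicate 6, Fdps was at 12.43, the top of its group, while Ggps1 at 10.49 and Insig1 at 10.27 were at the bottom of theirs. Metestrus replicate 7 showed the reverse, with Fdps at 11.36, Ggps1 at 11.78 and Insig1 at 11.55. Proestrus replicate 1 resembled Metestrus replicate 6, with Fdps at 12.44, Ggps1 at 10.57 and Insig1 at 10.64. Estrus replicate 2 did so for Fdps, at 12.41, the top of its group, but Ggps1 at 10.78 was not the lowest of its group and Insig1 at 10.88 was near the group mean. The longest transcripts of Fdps, Insig1 and Ggps1 have GC contents of 50.6%, 48.2% and 40.1%, and over 11163 tested genes with a mean of at least 7 the 25% richest in GC exceeded the 25% poorest by 0.29 in Metestrus replicate 6, 0.16 in Proestrus replicate 1 and 0.11 in Estrus replicate 2, and by -0.18 in Metestrus replicate 7 (log2, relative to group means). Males replicate 2, at 0.24, had Ggps1 at 10.84 and Insig1 at 10.87, the lowest of their group, but Fdps at 11.86 was under its group mean. Estrus replicate 1, at -0.15, had Ggps1 at 11.75 and Insig1 at 11.44, the tops of their group, but Fdps at 11.98 was also above its group mean. The part of GC content in the members' values was not tested.

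Male libraries diverged most for Npc1, with 9.93, 10.16, 9.00 and 8.89, against a lowest value of 9.38, a median of 9.60 and a highest value of 9.86 in metestrus. Its male replicates 1 and 2 lay above and 3 and 4 below the metestrus range, so the group mean of 9.50 describes none of them. Insig1 was split in the opposite sense, with 11, 10.87, 11.73 and 12.02 in the same male libraries. The strand setting of the counting is not given, and exons on the opposite strand overlap those of Npc1 (Rmc1), Hmgcs1, Idi1, Ggps1 (Arid4b), Fdft1 (Ctsb), Lss, Cyp51 (Akap9), Srebf1 (Rai1) and Scap, so reads of such neighbours may be included in their levels. Exons on the same strand overlap those of Tm7sf2 (Vps51), Fdps (Gm43738) and Srebf1 (Mir6922), whatever the strand setting.

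Genes of adjoining pathways were counted in 5 further lists, and no gene of any list passed in limma in any comparison with all libraries included. Of the 8 other enzymes of the mevalonate and sterol pathway, 1 had an unadjusted p under 0.05 in estrus against metestrus (11.3% of all genes) and none in the other comparisons. Acat1, the mitochondrial thiolase, averaged 12.14 in estrus and 11.67 in metestrus, a difference of 0.46 (SE 0.19, limma adjusted p = 0.385). Cyp27a1, the sterol 27-hydroxylase, averaged 3.90 in males and 5.26 in metestrus (difference -1.42, SE 0.87, limma adjusted p = 0.974, and -0.19 without Males replicate 4). Of the 13 genes of SREBP escort, cleavage and degradation, 1 had an unadjusted p under 0.05, in estrus against proestrus (14.5% of all genes). It was Tmem97, a regulator of Npc1 levels, which averaged 8.89 in estrus and 8.34 in proestrus (difference 0.58, SE 0.25, limma adjusted p = 0.28, and 0.88 without Proestrus replicate 3). Erlin2, which takes part in degradation at the endoplasmic reticulum, averaged 8.47 in estrus and 8.98 in metestrus (difference -0.52, SE 0.26, limma adjusted p = 0.465, and -0.30 without Estrus replicate 4).

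Sterol uptake, export and transport was represented by 18 genes, of which 17 were tested, and held the gene with the smallest unadjusted p of all 5 lists. An unadjusted p under 0.05 was found for 2 of the 17 in proestrus against metestrus (13.1% of all genes), 4 in estrus against proestrus (14.5%), 2 in estrus against metestrus (11.3%) and 2 in males against metestrus (5.33%). Nr1h3, the liver X receptor alpha, averaged 8.77 in estrus and 8.02 in proestrus, a difference of 0.73 (SE 0.22, limma adjusted p = 0.108, and 0.0433 without Estrus replicate 4). Among 15 fatty acid targets of SREBP-1 an unadjusted p under 0.05 was found for 0 in proestrus against metestrus, 2 in estrus against proestrus, 1 in estrus against metestrus and 1 in males against metestrus. Mid1ip1, an activator of acetyl-CoA carboxylase, averaged 14.11 in males and 13.71 in metestrus (difference 0.41, SE 0.13, limma adjusted p = 0.804). Pnpla3, a lipase of lipid droplets, averaged 2.23 in estrus, below the minimum level, and 5.14 in proestrus (limma adjusted p = 0.109, and 0.0452 without Estrus replicate 2). Of 14 genes of the isoprenoid branch that does not lead to sterols the same counts were 2, 1, 1 and 0. Rabggta, a subunit of a prenyltransferase of Rab proteins, averaged 10.35 in proestrus and 9.50 in metestrus (difference 0.88, SE 0.29, limma adjusted p = 0.168, and 0.0471 without Metestrus replicate 3). Pdss1, which makes the side chain of coenzyme Q, averaged 7.38 in estrus and 6.38 in proestrus (difference 1.02, SE 0.38, limma adjusted p = 0.205, and 0.42 without Proestrus replicate 2).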

How the data were processed

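The deposited table holds values on a log2 scale that the authors adjusted with surrogate variable analysis, per the deposited table's name. Per the submitters' processing notes, STAR, Salmon, edgeR and GRCm39 were used, and their versions are not given. Values cleaned in this way lacked 4 of the 15 directions left after group means, so the fit assumes more residual degrees of freedom than the values hold. Read depth per library is not known from log2 values, and no interval of counting error is given.

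Genes reaching 10 before the log (3.32 on the log2 scale) in at least 3 libraries were tested, 20644 of 21749 (94.9%), with limma 3.58.1 in R 4.3.3 (trend and robust prior, group and batch as terms, 19 libraries, Benjamini-Hochberg adjustment over all tested genes). The model was run on simulated data with independent noise, no batch effect and no missing directions. That run cannot check the degrees of freedom assumed for the deposited values. The 30 genes and the related lists were chosen with earlier results of these data known. Fold changes of single members are given where they reached 0.3 in size (log2), which took in 36 values. Members named by library are those with the lowest p per comparison and leaders of each role, others being named after their values were seen; of each related list the 2 genes with the lowest p are named, except that 1 item is not reported here. Transcript lengths and GC come from GENCODE M21 (GRCm38), matched for 89.4% of tested genes, a different build from the authors'. Alternatives covered the filter, batch term, missing directions, centring, prior, single libraries and a replicate block.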

Additional observations from a re-analysis of the deposited data

Results flagged for a closer look

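Of 90 groups of 4 to 10 libraries examined over the 30 genes, 4 held a library far from the others, and chance gives about 1 in 20 such groups (5%). Ebp was 8.77 in Estrus replicate 3, where the other estrus libraries lay between 8.16 and 8.21. Npc2 was 11.78 in Estrus replicate 4, where the others lay between 12.13 and 12.16. Pmvk was 11.01 in Metestrus replicate 4, where the others lay between 11.53 and 11.93, and Fdft1 was 11.63 in the same library, where the others lay between 11.94 and 12.19.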

How the results depend on the processing

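The number of members called was 0 in the main fit and in all 71 alternative fits over the 4 comparisons, and the lowest adjusted p of any member was 0.0587 (Mylip, estrus against metestrus, no batch term). Some of these fits could not move the fold changes. Omitting a metestrus library of batch 4 left the stage differences unchanged, and omitting one of batches 2 or 3 left those of males unchanged. The median difference of the members in estrus against metestrus, -0.12, spanned -0.20 to 0.06 with 1 library omitted at a time, being 0.04 without Estrus replicate 4 and 0.06 without Metestrus replicate 3. Over all genes it was -0.07 in the main fit, 0.01 without Estrus replicate 4 and 0.01 without Metestrus replicate 3. The difference of Cyp51 in proestrus against metestrus, -0.35, spanned -0.51 to 0.03, the last without Metestrus replicate 3. Rabggta passed the threshold without Metestrus replicate 3 (limma adjusted p 0.0471), Pnpla3 without Estrus replicate 2 (0.0452) and Nr1h3 without Estrus replicate 4 (0.0433). The cause was not tested. The sterol element was found for 4.0% of members as spelled, for 44% with 1 mismatch allowed (26.7% of all genes) and for 12% by its 8-base core (4.06% of all genes). Over all genes, 204 were called in proestrus against metestrus (1 to 1146 over alternatives), 194 in estrus against proestrus (0 to 430), 18 in estrus against metestrus (0 to 899) and 5 in males against metestrus (1 to 10). Numbers shared by male and female titles did not pair the libraries (correlations of 0.16, 0.03, -0.26 and -0.13), and a fit with them as a replicate block gave 0 members called and a median of 0.18. The fit with the missing directions counted also had no batch term. It called 280 genes in proestrus against metestrus and 33 in estrus against proestrus. It called 54 in estrus against metestrus and 5 in males against metestrus. These calls were fewer in all 4 comparisons than in the fit that only left out the batch term. That fit called 1146 in proestrus against metestrus, 899 in estrus against metestrus and 10 in males against metestrus. Against the main fit, which keeps batch, the counts mix both changes. The members' 95% intervals had a median half-width of 0.48 (log2) in proestrus against metestrus, 0.45 in both estrus comparisons and 0.39 in males against metestrus. Groups held 3 to 8 libraries. With batch as a term, the stage fold changes drew on 2 metestrus libraries of batch 2 and 1 of batch 3. The male fold changes drew on the 5 metestrus libraries of batch 4.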
